A study of Homo sapiens with 4 samples.

Results

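The neurite and neuronal cytoskeleton genes examined here are 10 genes chosen by name: MAP1A, MAP1B, MAP2, MAPT, NEFL, NEFM, STMN1, STMN2, GAP43 and DPYSL3. They are 10 of the 58243 genes in the deposited tables, each name matched a single row, and all 10 passed the filter on low counts that left 14759 genes for testing. RNA was sequenced from SH-SY5Y, a human neuroblastoma cell line with neuronal features. The control group holds 2 libraries (a and b) of cells given no agent, and the other group holds 2 libraries (a and b) of cells given sodium nitroprusside (SNP), a donor of nitric oxide, with an exposure of 8 h. The treatment text speaks of cells differentiated with retinoic acid, which would then apply to both groups, and does not give the dose that was sequenced. The labels do not say whether libraries a and b came from separate cultures, so every p-value below measures only the spread between these libraries.

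Neurites are held up by microtubules and neurofilaments. Microtubule-associated proteins bind and stabilise microtubules, stathmins bind free tubulin and favour disassembly, and neurofilaments are intermediate filaments that fill the axon and set its calibre. Growth cones, the moving tips of neurites, are rich in GAP43 and in collapsin response mediator proteins such as DPYSL3, which link guidance signals to the cytoskeleton. SH-SY5Y cells are widely used to follow neurite outgrowth, and several of these genes serve as markers of it.

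Gene counts summed to between 5613144 and 8056550 per library, so that 3 counts equal 0.372 to 0.534 CPM (counts scaled to library size). Of 11 markers of adrenergic neuroblastoma cells, 10 were expressed well enough to be tested; TH was listed at 0 in all 4 libraries. Their summed level was 4103 and 4320 TPM (a level per gene length) in control and 3314 and 3763 TPM in SNP libraries, and 9 of them differed between the groups, in both directions. HAND2, CHGA and CHGB rose, by 0.41, 0.91 and 0.97 on the log2 scale, while PHOX2A, GATA2, GATA3 and DBH were among those that fell. DBH stood at 1054 and 1240 TPM in control and at 398 and 564 TPM in SNP libraries. Of 9 markers of mesenchymal-type neuroblastoma cells and fibroblasts, 5 were tested and COL3A1 alone differed. Their sum was 371 and 426 TPM in control and 454 and 450 TPM in SNP libraries, and TWIST1 held most of it. Of 6 Schwann and glial markers, SOX10 and FABP7 were among those at 0 in every library and the sum lay between 3.27 and 6.65 TPM; of 4 immune markers, PTPRC and CD3E were among those at 0. The part of the 2 neuroblastoma marker shifts in the results below was not tested. In bulk RNA, fewer cells of a type and less RNA per cell cannot be told apart.

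Most of the neurite genes changed little. MAP1A fell, NEFL and DPYSL3 rose, and the other 7 did not pass the test (quasi-likelihood F test of edgeR, Benjamini-Hochberg adjusted p under 0.05 over the whole table, n = 2 per group throughout). Across all genes tested 26.2% were called, 13.6% higher and 12.6% lower, so 3 of 10 is near the background. In the fit of the 11347 genes with a mean of at least 50 counts, 3750 genes and 4 of the 10 passed. MAP1A was the only member whose estimate passed 1.5-fold. The median log2 fold change of the 10 genes was -0.03, against -0.0042 for all genes tested, and the median absolute log2 fold change was 0.19 against 0.29. For each of the 7 genes that did not pass, the 95% interval of the log2 fold change lay within 0.5 of 0. This bound was not part of the planned tests, and the furthest limit was 0.49, for NEFM. The bound does not hold for NEFM with the offsets for base composition described below, where its interval was -0.67 to -0.15. On the CPM scale, in 5 of the 10 genes (MAP1A, MAP1B, NEFL, STMN2 and DPYSL3) both SNP values lay on the same side of both control values, which held for 64.0% of all genes tested.

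**Figure D1:**
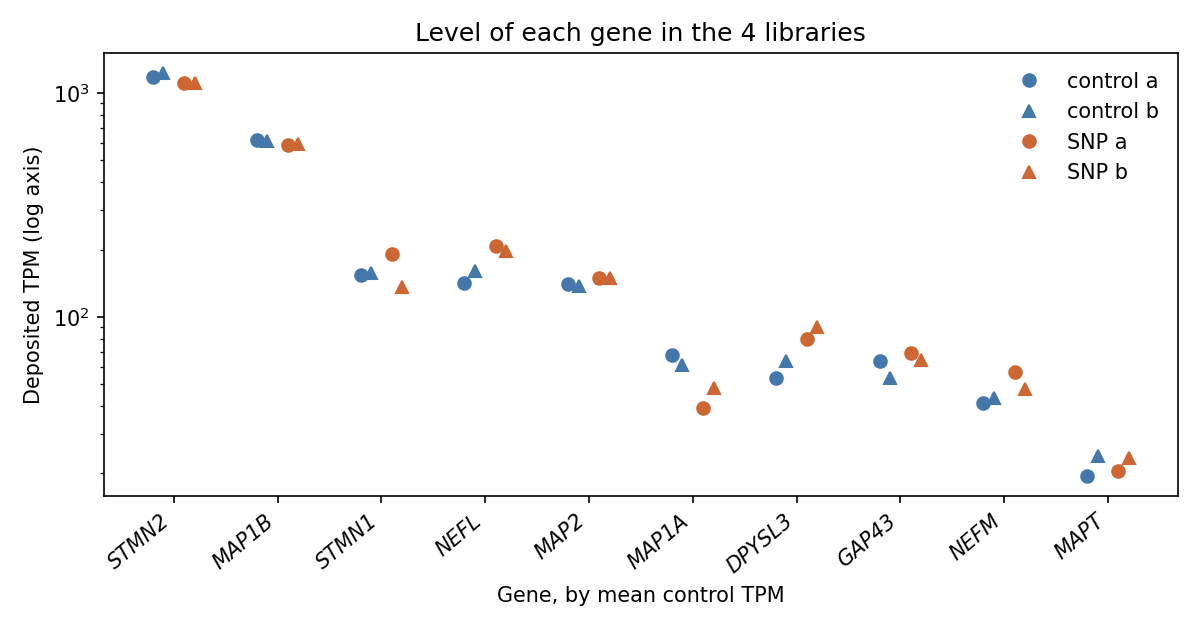
Deposited TPM (log axis) of each of the 10 genes in control a and b (blue) and SNP a and b (orange), ordered by mean control level. STMN2 and MAP1B lie above all others in every library. On this scale the groups overlap for STMN1 and MAPT alone. MAP1A, MAP1B and STMN2 are lower and NEFL, MAP2, DPYSL3, GAP43 and NEFM higher in SNP libraries. Compared with CPM, TPM raises the SNP libraries against the controls by factors that all genes share. In CPM the groups also overlap for MAP2, GAP43 and NEFM.

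The levels spanned a wide range. On the TPM scale STMN2 was highest, at 1204 ± 34.1 TPM in control libraries (mean ± SD), and MAP1B followed at 616 ± 4.04 TPM. STMN1 (155 ± 2.12 TPM), NEFL (151 ± 12.4 TPM) and MAP2 (139 ± 2.76 TPM) formed a middle group, in which the replicate values of STMN1 and NEFL overlapped. MAP1A (64.4 ± 4.91 TPM), DPYSL3 (58.6 ± 7.31 TPM) and GAP43 (58.5 ± 7.33 TPM) came next and overlapped in their replicates. NEFM (42.3 ± 1.65 TPM) and MAPT (21.7 ± 3.24 TPM) were lowest. In SNP libraries STMN2 (1111 ± 0.396 TPM) and MAP1B (589 ± 4.98 TPM) kept ranks 1 and 2 and MAPT (21.9 ± 2.02 TPM) rank 10, while MAP1A moved from rank 6 to rank 9 (43.7 ± 6.50 TPM). These ranks depend on the length by which a level is divided. The lengths behind the deposited TPM equalled the merged exons of GENCODE 29 within 0.1% for 8 of the 10 genes (not for MAPT and NEFL). The merged exons of STMN1 are 6.60 times as long as its longest coding transcript, those of STMN2 2.96 times and those of MAPT 2.19 times. Divided by the longest coding transcript, STMN1 in control libraries stood at rank 2 with 218 CPM per kb, above MAP1B at 138 CPM per kb and below STMN2 at 756 CPM per kb.

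MAP1A (ENSG00000166963; chromosome 15, 43510958 to 43531620, plus strand, GRCh38) encodes a large protein that links and stabilises microtubules, best known from dendrites of mature neurons. Its level was 155 and 136 CPM in control a and b, and 83.2 and 98.2 CPM in SNP a and b. Both SNP libraries lay below both control libraries, with a gap wider than the distance between replicates. The log2 fold change was -0.68 (SE 0.114), a ratio of 0.622 (95% interval 0.528 to 0.734), with an edgeR adjusted p (Benjamini-Hochberg) of 0.00016. Of all genes tested, 7.31% had a lower log2 fold change. MAP1A kept its call in all 13 alternative analyses, with log2 fold changes between -0.81 and -0.52.

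MAP1B (ENSG00000131711; chromosome 5, 72107234 to 72209570, plus strand), the paralog of MAP1A that is abundant in growing axons, was counted more often than any other of the 10 genes. Its level was 1679 and 1632 CPM in control a and b, and 1480 and 1431 CPM in SNP a and b. The groups did not overlap, but the log2 fold change of -0.19 (95% interval -0.35 to -0.02) gave an adjusted p-value of 0.0935 (edgeR, Benjamini-Hochberg). The TPM ratio of MAP1B over MAP1A, which does not depend on library scaling, was 9.12 and 10.1 in control and 14.97 and 12.3 in SNP libraries. The mean log2 ratio was 0.50 higher with SNP, and the exact permutation test (two-sided) gave p = 0.333, the smallest value that 2 against 2 libraries can reach.

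The bases before a RefSeq start of MAP1A and of MAP1B are shown because these paralogs share a role while MAP1A passed the test and MAP1B did not; whether their responses differ is given only by the ratio above. Each sequence is the 250 bases before the RefSeq start used (GRCh38.p14), 5′ to 3′ on the gene's plus strand, with capitals for 3 motifs on either strand: GGGCGG (the GC box), TATAAA (the TATA box) and CCAAT (the CCAAT box). MAP1A is chr15:43510704-43510953 and MAP1B is chr5:72107225-72107474. The MAP1A window ends before the GENCODE gene start given above, whereas the GENCODE gene record of MAP1B begins near the 5′ end of its window, so that most of the window lies inside the annotated gene.
MAP1A: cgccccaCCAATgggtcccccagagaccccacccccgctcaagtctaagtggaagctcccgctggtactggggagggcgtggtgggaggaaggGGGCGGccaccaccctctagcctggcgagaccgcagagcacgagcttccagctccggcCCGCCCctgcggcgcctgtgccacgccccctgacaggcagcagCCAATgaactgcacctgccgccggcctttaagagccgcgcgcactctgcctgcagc
MAP1B: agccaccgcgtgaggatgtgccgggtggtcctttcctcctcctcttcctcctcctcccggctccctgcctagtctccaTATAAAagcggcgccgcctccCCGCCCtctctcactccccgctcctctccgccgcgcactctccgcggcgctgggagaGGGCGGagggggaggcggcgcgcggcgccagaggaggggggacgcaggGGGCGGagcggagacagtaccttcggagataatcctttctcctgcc

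The MAP1A sequence holds 2 matches of GGGCGG or its reverse complement and 2 of CCAAT, and the MAP1B sequence holds 3 of GGGCGG and 1 of TATAAA. Among 35116 RefSeq promoters of the same length, 42.6% hold GGGCGG, 10.7% TATAAA and 32.0% CCAAT, in either orientation. The cAMP response element TGACGTCA, which 1.65% hold, is in neither sequence. The MAP1A sequence has 18 CpG dinucleotides and the MAP1B sequence 25, against a median of 11 over those promoters. Each gene has another RefSeq start, whose sequence is not shown and differs. There MAP1A has 9 CpG, 4 matches of GGGCGG and 0 of CCAAT. MAP1B there has 11 CpG, 2 matches of GGGCGG and 1 of TATAAA. These matches describe the letters only.

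MAP2 (ENSG00000078018, chromosome 2, 209424058 to 209734118, plus strand), the main microtubule-associated protein of dendrites, had almost the same CPM in the groups. It stood at 349 and 333 CPM in control a and b, and at 344 and 329 CPM in SNP a and b. The groups overlapped in CPM, and the log2 fold change was -0.02 (95% interval -0.21 to 0.17, edgeR, Benjamini-Hochberg adjusted p = 0.9019). On the TPM scale they did not, with 140.7 and 136.8 TPM in control and 148.5 and 148.8 TPM in SNP libraries. Apart from length, TPM and CPM differ by a factor per library that all genes share. That factor raises SNP levels against control levels for every member in TPM, so the contrast is not particular to MAP2. The same holds for NEFM and GAP43 below. MAPT (ENSG00000186868; chromosome 17, 45894382 to 46028334, plus strand), which encodes tau, the microtubule-associated protein of axons, was the lowest member per length. Its level was 52.3 and 63.4 CPM in control a and b, and 51.5 and 56.0 CPM in SNP a and b. The groups overlapped here too, with a log2 fold change of -0.10 (95% interval -0.37 to 0.17; edgeR, Benjamini-Hochberg adjusted p = 0.6068). MAPT shares 75 exonic bases with the antisense gene MAPT-AS1, which had 15 counts in all 4 libraries together. The counts are per gene, so tau or MAP2 isoforms were not separated.

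The neurofilament genes NEFL and NEFM lie next to each other on chromosome 8. NEFL (ENSG00000277586; 24950955 to 24957110, minus strand) encodes the light subunit on which the filament is built. Its level was 125 and 137 CPM in control a and b, and 170 and 154 CPM in SNP a and b. Both SNP libraries were above both control libraries. NEFL rose with a log2 fold change of 0.31 (SE 0.105), a ratio of 1.24 (95% interval 1.06 to 1.44), and an adjusted p-value of 0.0358 (edgeR, Benjamini-Hochberg). This call was close to the threshold and was lost without control a (log2 fold change 0.23, adjusted p = 0.3555 by edgeR with Benjamini-Hochberg adjustment), without control b (0.38 and 0.0890) and without SNP a (0.23 and 0.1455). It was also lost with DESeq2's Wald test (0.31, Benjamini-Hochberg adjusted p = 0.0684) and with no filter on low counts (0.30, edgeR adjusted p = 0.0531).

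NEFM (ENSG00000104722; 24913012 to 24919098, plus strand) encodes the medium subunit, whose long tail projects from the filament. Its level was 38.7 and 40.1 CPM in control a and b, and 49.98 and 39.8 CPM in SNP a and b. SNP a was high while SNP b lay between the controls, so the groups overlapped in CPM. On the TPM scale they did not, with 41.2 and 43.5 TPM in control and 57.0 and 47.5 TPM in SNP libraries. The log2 fold change from the counts was 0.19 (95% interval -0.11 to 0.49; edgeR, Benjamini-Hochberg adjusted p = 0.3620). With the composition offsets it was -0.41 (95% interval -0.67 to -0.15) and passed (edgeR, Benjamini-Hochberg adjusted p = 0.0296). NEFL exceeded NEFM in every library, with a TPM ratio of 3.46 and 3.68 in control and 3.65 and 4.15 in SNP libraries. That ratio overlapped between the groups (exact permutation test, two-sided, p = 0.667, where 0.333 is the smallest possible). NEFL and NEFM share 490 and 1706 exonic bases with AC107373.2 and AF106564.1, both with 0 counts.

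The stathmins gave different pictures. STMN2 (ENSG00000104435; chromosome 8, 79610814 to 79666175, plus strand), a neuronal stathmin of growth cones, stood at 598 and 611 CPM in control a and b, and at 526 and 502 CPM in SNP a and b. The SNP libraries lay below the controls, but the adjusted p-value of 0.0522 (edgeR, Benjamini-Hochberg) missed the threshold at a log2 fold change of -0.23 (95% interval -0.42 to -0.05). It passed with a mean of at least 50 counts (-0.23, edgeR adjusted p = 0.0482), with total counts without TMM (-0.23, 0.0419) and with limma-voom (-0.23, 0.0378), all with Benjamini-Hochberg adjustment. STMN1 (ENSG00000117632; chromosome 1, 25884181 to 25906991, minus strand), the stathmin of dividing cells and young neurons, stood at 206.8 CPM in both control libraries, and at 240.3 and 163 CPM in SNP a and b. The SNP libraries lay on opposite sides of the controls. The log2 fold change was -0.04 (95% interval -0.31 to 0.23; edgeR, Benjamini-Hochberg adjusted p = 0.8672). Without SNP a it was -0.35 and passed (edgeR, Benjamini-Hochberg adjusted p = 0.0205), and without SNP b it was 0.22 and did not (0.1140). The TPM ratio of STMN2 over STMN1 was 7.66 and 7.82 in control and 5.80 and 8.17 in SNP libraries, with an exact permutation p of 1.0 (two-sided, smallest possible 0.333).

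Of the growth cone genes, GAP43 (ENSG00000172020; chromosome 3, 115623324 to 115721490, plus strand) encodes a membrane-bound substrate of protein kinase C. It had the fewest counts of the 10 genes, at 28.5 and 23.4 CPM in control a and b, and at 28.95 and 25.5 CPM in SNP a and b. The groups overlapped in CPM, and the log2 fold change was 0.07 (95% interval -0.28 to 0.41, edgeR, Benjamini-Hochberg adjusted p = 0.8161). On the TPM scale they did not, with 63.7 and 53.3 TPM in control and 69.3 and 64.0 TPM in SNP libraries. DPYSL3 (ENSG00000113657; chromosome 5, 147390811 to 147510056, minus strand), also called CRMP4, rose. Its level was 82.2 and 96.2 CPM in control a and b, and 114 and 123 CPM in SNP a and b. Both SNP libraries lay above both controls, with a log2 fold change of 0.41 (SE 0.113), a ratio of 1.33 (95% interval 1.13 to 1.57), and an adjusted p-value of 0.0104 (edgeR, Benjamini-Hochberg). The call was lost without control a, at a log2 fold change of 0.29 (edgeR, Benjamini-Hochberg adjusted p = 0.2469), and held in the other 12 alternatives.

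**Figure D2:**
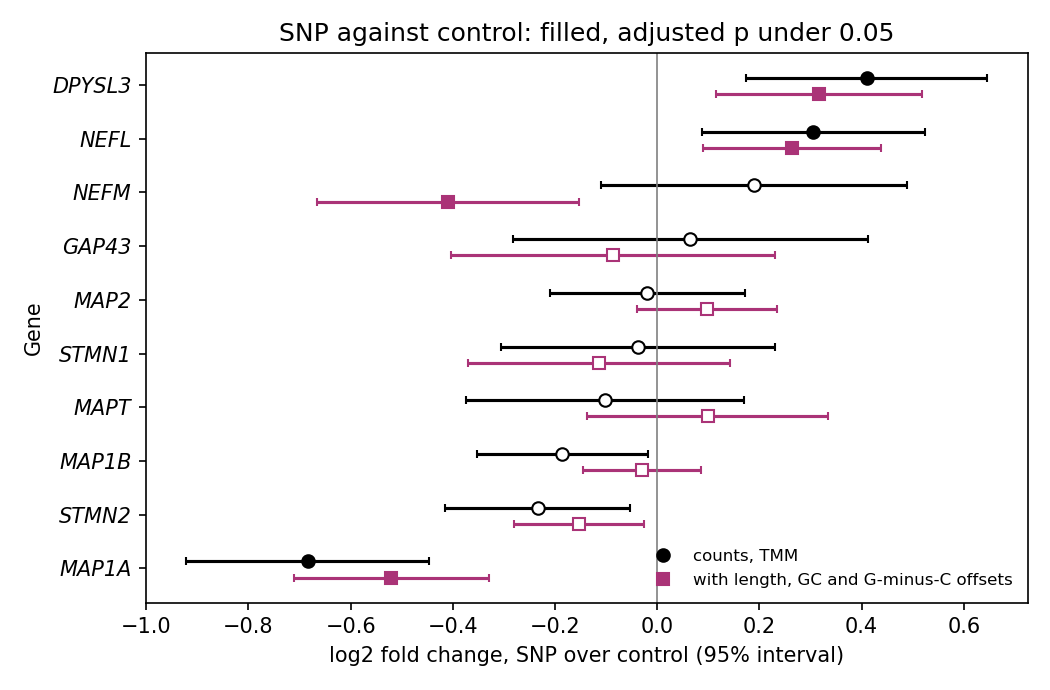
Log2 fold change of SNP over control with its 95% interval for each of the 10 genes, from the counts (circles) and with offsets for length, GC and guanine minus cytosine (squares), filled where the adjusted p is under 0.05. MAP1A, NEFL and DPYSL3 are filled in both, and NEFM moves from 0.19 to -0.41.

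The log2 fold changes of these libraries moved with the base composition of the transcripts. Across the 14724 genes tested that had a composition, the Spearman correlation of log2 fold change with guanine minus cytosine content was 0.48; genes are not independent replicates, and they share the same 4 libraries. Over all annotated transcripts, NEFM holds 30.3% guanine and 23.1% cytosine, a difference of 7.18 percentage points at percentile 98.7 of the genes tested. GAP43 follows at 3.70 points (percentile 86.1). DPYSL3 (1.90), STMN1 (1.64), NEFL (1.59) and STMN2 (1.11) lie near the median of 1.04 points, and MAP2 (-0.61), MAP1B (-0.99), MAP1A (-1.32) and MAPT (-1.72) hold more cytosine than guanine. This holds over all annotated transcripts and not for the coding sequence of MAP2, which stood at 1.28 points. The coding sequences of STMN1 (-1.14), NEFL (3.74) and STMN2 (4.26 points) also differed from their values over all annotated transcripts. The offsets below used the latter, and offsets from coding sequences were not fitted.

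With offsets for gene length, GC content and guanine minus cytosine, the estimates became -0.52 for MAP1A, 0.26 for NEFL and 0.32 for DPYSL3, with adjusted p-values of 0.0016, 0.0372 and 0.0319 (edgeR, Benjamini-Hochberg). NEFM turned from 0.19 to -0.41 and passed, as given above. With the offsets 4 of the 10 genes passed, beside 2762 of all 14759 genes tested (3861 without the offsets). NEFL and NEFM thus moved in opposite directions under these offsets and not without them. The offsets shifted NEFM by -0.60, the largest shift of the 10 genes, at percentile 98.7 of guanine minus cytosine. No fit with offsets left out a library, so the stability of the NEFM result was not tested. MAP1B moved from -0.19 to -0.03, and MAP2 (0.10), MAPT (0.10) and GAP43 (-0.09) changed sign without passing. NEFM is 1 of the 1473 genes in the tenth of all genes richest in guanine over cytosine, whose median log2 fold change was 0.39. In the group that holds MAP1A, MAP1B and MAP2 the median was -0.17.

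The coding stretches below show the composition of both non-chromosome-8 members that passed the test. Each is the in-frame stretch of 90 bases within a single exon whose guanine and cytosine shares lie closest to those of the whole coding sequence of the longest coding transcript in GENCODE 29. Guanines are in capitals. The MAP1A stretch, chr15:43521351-43521440 on the plus strand, covers coding bases 592 to 681, and the DPYSL3 stretch, chr5:147400716-147400805 on the minus strand, covers coding bases 1339 to 1428.
MAP1A: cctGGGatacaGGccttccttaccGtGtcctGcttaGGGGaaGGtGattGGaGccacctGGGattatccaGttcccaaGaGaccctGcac
DPYSL3: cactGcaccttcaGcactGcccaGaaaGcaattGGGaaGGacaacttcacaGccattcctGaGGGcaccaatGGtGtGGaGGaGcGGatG

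The MAP1A stretch holds 25 guanines and 26 cytosines, and the DPYSL3 stretch 26 and 24. Over the whole coding sequence guanine minus cytosine was -0.94 points in MAP1A and 2.38 points in DPYSL3. It was 8.54 points in NEFM, 3.74 points in NEFL, 4.26 points in STMN2 and -3.47 points in MAPT.

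**Figure D3:**
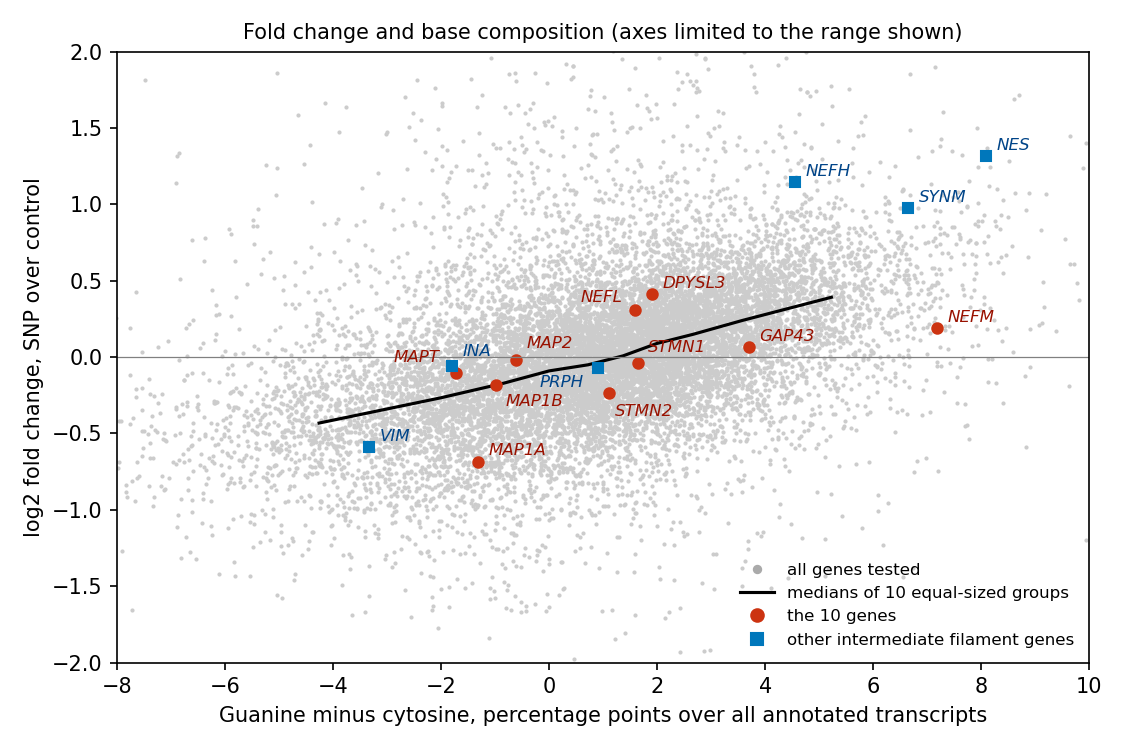
Log2 fold change of SNP over control against guanine minus cytosine content (percentage points) for all genes tested (grey), the 10 genes (red circles) and the other intermediate filament genes (blue squares), with the medians of 10 equal-sized groups of genes as a line. MAP1A lies below the line, NEFL and DPYSL3 above it, and NEFM, at 7.18 points, lies to the right of the line's end and below its last value of 0.39; the axes leave out the most extreme genes.

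Related genes of the cytoskeleton and its regulation were taken from 11 lists, of which 174 genes were tested. Of these, 65 passed (37.4%), 26 higher and 39 lower, with a median log2 fold change of -0.07, beside 26.2% of all genes tested. In the fit of the 11347 genes with a mean of at least 50 counts, 3750 genes passed. With the composition offsets 2762 of all 14759 genes tested passed, 1245 higher and 1517 lower, against 3861 without them. Counts with the offsets in the lists below therefore stand beside this lower background. The related genes were not matched to other genes by count, so whether 37.4% exceeds their background was not tested. Of 6 other intermediate filament genes tested, 3 rose, 1 fell and 2 did not pass, with a median of 0.46. NES, which encodes nestin, a filament protein of neural precursors, was counted 1095 and 913 times in control a and b, and 3477 and 2980 times in SNP a and b. Its mean went from 165 ± 4.79 to 412 ± 36.3 CPM, up by 1.32 on the log2 scale (SE 0.0990; edgeR, Benjamini-Hochberg adjusted p = 1.3e-08). NEFH, the heavy neurofilament subunit, was counted 116 and 94 times in control and 331 and 270 times in SNP libraries. Its mean went from 17.3 ± 0.849 to 38.3 ± 4.71 CPM, up by 1.15 on the log2 scale (SE 0.167; edgeR, Benjamini-Hochberg adjusted p = 4.2e-05). SYNM, which encodes synemin, a partner of vimentin and nestin filaments, rose by 0.97 on the log2 scale (edgeR, Benjamini-Hochberg adjusted p = 1.5e-05). VIM, which encodes vimentin, fell by 0.59 on the log2 scale, from 198 ± 23.2 to 132 ± 5.28 CPM.

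These 4 intermediate filament calls were all kept when any 1 library was left out and with the composition offsets. The offsets reduced them to 0.60 for NES, 0.80 for NEFH, 0.41 for SYNM and -0.28 for VIM. NES, SYNM and NEFH, with 8.096, 6.65 and 4.55 points of guanine over cytosine, lie toward the guanine-rich end with NEFM, and VIM lies at -3.33 points. INA, the alpha-internexin gene, and PRPH, the peripherin gene, did not pass, at -0.06 and -0.07 on the log2 scale (0.22 and -0.10 with the offsets).

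**Figure D4:**
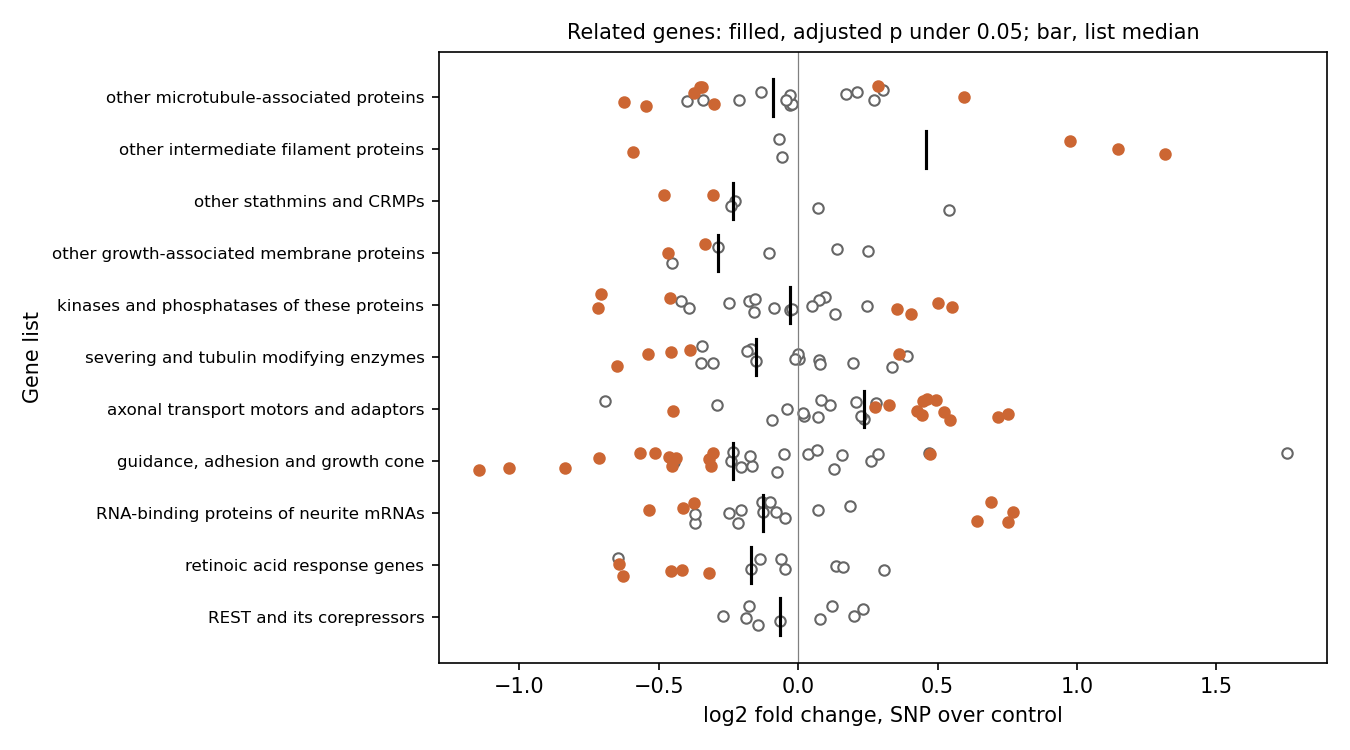
Log2 fold change of SNP over control for the tested genes of the 11 related lists, 1 row of points per list, filled where the adjusted p is under 0.05, with the list median as a bar. Intermediate filament genes reach 1.32, most passing transport genes lie above 0, and most passing guidance genes lie below 0.

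Among 20 other microtubule-associated proteins, 2 rose, 6 fell and 12 did not pass (median -0.09). MAPRE1, which encodes the plus-end tracking protein EB1, rose by 0.59 on the log2 scale, and CAMSAP1, which encodes a minus-end binding protein, by 0.29. MAPRE2 fell by 0.62, MAP1S, a small relative of MAP1A, by 0.55, and DCLK2 by 0.37 on the log2 scale. With the composition offsets 3 of the 20 passed, and without control b also 3; CAMSAP1, MAPRE2, MAP1S and DCLK2 were not among those of the offsets. Of 6 other stathmin and collapsin response mediator genes none rose and 2 fell, DPYSL5 by 0.48 and DPYSL2 by 0.31 on the log2 scale (median -0.24). DPYSL3 thus rose while these 2 relatives fell, and all 3 kept their calls with the offsets. Without control a, only 1 of the 6 passed, and without SNP b 4 did. Of 7 other growth-associated membrane protein genes none rose and 2 fell, MARCKSL1 by 0.33 and GPM6B by 0.47 on the log2 scale (median -0.29). None of the 7 passed without control a, without control b or with DESeq2's Wald test, and 3 had an unadjusted p under 0.05 in edgeR. MARCKSL1 stood at 0.06 with the offsets and did not pass.

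Of 25 genes of axonal transport motors and adaptors, 11 rose, 1 fell and 13 did not pass (median 0.24). JAKMIP1 rose by 0.75, DYNC1LI2, a light intermediate chain of cytoplasmic dynein, by 0.72, and MAPK8IP3, an adaptor of kinesin cargo, by 0.54 on the log2 scale. MAPK8IP1 fell by 0.45. With the composition offsets 7 passed, 6 higher and 1 lower, and the median was 0.07. These were in part other genes: KIF1A and KLC2 (higher) and KIF21A (lower) passed with the offsets only. JAKMIP1 and MAPK8IP1 did not pass with them, nor did most of the genes that had risen. Without control b, 6 passed. Of 21 kinases and phosphatases that act on microtubule-associated proteins, 4 rose, 3 fell and 14 did not pass (median -0.03). CDK5R1, the activator of the tau kinase CDK5, rose by 0.55, PPP2CB by 0.50 and DYRK1A by 0.41 on the log2 scale, while MAPK10 fell by 0.72 and PPP2R2B by 0.71. With the composition offsets 8 of the 21 passed, 4 higher and 4 lower. Fewer than 7 passed when control a, control b or SNP a was left out, and more when SNP b was.

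Of 19 severing and tubulin modifying enzymes, 1 rose, 4 fell and 14 did not pass (median -0.15). TTLL4 fell by 0.54 and FIGN by 0.46 on the log2 scale, while FIGNL1 rose by 0.36. None of these 3 passed with the offsets, where 4 of the 19 genes did. Fewer than 5 passed when control a, control b or SNP a was left out, and more when SNP b was. Of 29 guidance receptor, adhesion and growth cone signalling genes, 1 rose, 12 fell and 16 did not pass (median -0.23). UNC5A, a netrin receptor, fell by 1.14, from 37.2 ± 3.19 to 16.9 ± 0.190 CPM. DCC, another netrin receptor, fell by 1.04, and PLXNA4, a semaphorin receptor, by 0.84 on the log2 scale. EFNB2 rose by 0.47. With the offsets 13 passed, 2 higher and 11 lower, and UNC5A, DCC, PLXNA4 and EFNB2 kept their calls.

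Of 19 RNA-binding proteins that bind neurite mRNAs, 4 rose, 3 fell and 12 did not pass (median -0.13). TARDBP rose by 0.77 and FXR1 by 0.69 on the log2 scale, while PTBP1 fell by 0.53, ELAVL4, the HuD protein that binds GAP43 and tau mRNAs, by 0.41, and NOVA2 by 0.37. With the offsets 2 passed, both lower; ELAVL4 stood at -0.36 and kept its call, while TARDBP, FXR1, PTBP1 and NOVA2 did not. Of 13 retinoic acid response genes none rose, 5 fell and 8 did not pass (median -0.17). RARG fell by 0.64, RARA by 0.63 and MEIS1 by 0.46 on the log2 scale. With the offsets 2 passed, MEIS1 among them. Fewer than 5 passed when control a, control b or SNP a was left out, and the same number when SNP b was. Of 9 genes of REST, the repressor of neuronal genes, and its corepressors, 0 passed in edgeR (2 had an unadjusted p under 0.05) and 0 in DESeq2 or limma-voom. The median was -0.07. With the offsets 1 passed, RCOR3 at 0.28 (edgeR, Benjamini-Hochberg adjusted p = 0.0206; named after its value was seen), and 2 passed without SNP b.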

How the data were processed

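Per the labels' protocols, RNA of SH-SY5Y cells was sequenced with 75 bp reads at about 40 M reads per sample. The submitters' processing notes name GRCh 38; aligner, counter and annotation are not given in the sources used here. The authors deposited whole-number counts per gene with no normalization, TPM values (per length, scaled to the same sum in each library), and RPKM values, which were not used. Annotation, lengths and base composition came from GENCODE 29 (57980 of 58243 identifiers matched) and promoters from RefSeq. Promoter windows were read for 6 of the 10 genes.

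Counts were filtered by filterByExpr (minimum count 10, minimum total 15), scaled by TMM and tested in edgeR 4.0.16 (R 4.3.3) by the quasi-likelihood test with no covariate and Benjamini-Hochberg adjustment over all genes, threshold 0.05. Intervals used the test's degrees of freedom, and CPM used TMM library sizes. The alternatives used DESeq2 1.42.0, limma 3.58.1 and per-library lowess offsets (span 0.5). Counts per library, 5613144 to 8056550, set the precision. In a simulation of 14702 genes with 200 changed by a log2 fold change of 1, 89.0% of those were called and 4.30% of calls were false. It held no trend with base composition, and every estimate of the 10 genes was smaller than 1. These shares therefore do not carry over to the calls here. A simulation with a trend on guanine minus cytosine alone gave 2028 calls, and 8 with the offsets. That trend used the same composition values that the offsets fit, and no other change was put in. It therefore cannot show whether the offsets also remove true changes. The members and lists were chosen with earlier results of these data known. Named genes are the 10 members and, per list, up to 3 rises and 3 falls with the largest change. These were taken among genes with an adjusted p under 0.05, a mean of at least 5 CPM and no overlap between groups. INA, PRPH, RCOR3, KIF1A, KIF3A, KIF21A, KLC2, PPP2CA and the genes in the closing observations were chosen after their values were seen. Some genes that this rule names are not reported here.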

Additional observations from a re-analysis of the deposited data

How the results depend on the processing

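Of 130 results for the 10 genes under alternatives, 104 kept their direction and side of the threshold. The 3861 genes called became 2415 with DESeq2's Wald test, and 2447 to 4144 when 1 library was left out. Letters a and b pair no samples by the labels, and differences between libraries a and b correlated at 0.050 between control and SNP; with the replicate block 4487 genes and 5 of the 10 were called instead of 3, adding MAP1B and STMN2. When 1 library was left out, 1 to 3 of the 10 and 39 to 70 of the related genes passed (65 with all libraries). With the composition offsets, and with these and the replicate block, the log2 fold changes that changed sign among the 10 genes and the related genes chosen by the naming rule were MAP2 (0.097 and 0.097), MAPT (0.098 and 0.099), NEFM (-0.41 and -0.41), GAP43 (-0.086 and -0.081) and MARCKSL1 (0.058 and 0.057). Other related genes also changed sign with the offsets, among them INA (-0.06 to 0.22), KIF3A (0.43 to -0.14) and PPP2CA (0.35 to -0.08). Signs also changed among fits that left out 1 library, which ranged from -0.053 to 0.015 for MAP2, -0.24 to 0.040 for MAPT, -0.35 to 0.22 for STMN1 and -0.066 to 0.21 for GAP43. The causes were not tested.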

Other observations

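Genes in this paragraph were chosen after their values were seen. DCX, the doublecortin gene of migrating neurons, fell from 231 ± 15.5 CPM to 181 ± 7.76 CPM with SNP (log2 fold change -0.35, edgeR with Benjamini-Hochberg adjusted p = 0.0117), and with the composition offsets it stood at -0.19 and did not pass (0.1204). STMN4 stood at 10.8 ± 0.603 and 15.6 ± 2.29 CPM, a log2 fold change of 0.54 that did not pass (edgeR, Benjamini-Hochberg adjusted p = 0.0697). CHL1 had the largest estimate of the related genes, 1.75, from 1 and 5 counts (control a and b) against 14 and 13 (SNP a and b), and did not pass (edgeR, Benjamini-Hochberg adjusted p = 0.0825). BASP1, a growth cone protein often described with GAP43, had only 23 to 30 counts per library.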
